A study of Mus musculus with 6 samples.

Results

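*Pparg*, *Lpl*, *Plin2*, *Abcg1*, *Fabp4*, *Fabp1*, *Cd36* and *Olr1*, 8 of the 32285 genes in the count matrices, were followed as genes of alveolar macrophage lipid handling. They were taken by name, all 8 were found in the matrices, and their unique molecular identifiers (UMIs, each standing for 1 captured mRNA molecule) were counted per mouse in every cell class of the lung. The study compared IgG1 isotype control with ipilimumab, an antibody to human CTLA4, in whole-lung single-cell RNA-Seq (scRNA-Seq) of male *hCTLA4* mice aged 12 weeks, with 3 mice in each arm and 1 library for each mouse. All 6 mice carried the knock-in, in which exons 2 and 3 of mouse *Ctla4* are replaced by the human exons on a C57BL/6 background, and all 6 had received bleomycin through the oropharynx (2 doses of 1.25 U per kg body weight, 2 weeks apart). IgG1 or ipilimumab (5 mg per kg body weight) was given from day 21 after the last bleomycin dose for 4.5 weeks. No mouse without bleomycin or without the knock-in was analysed here, so every comparison is between antibodies in injured lungs.

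Alveolar macrophages live on the air side of the alveolus and clear spent surfactant, a film made mostly of phospholipid with some cholesterol. Lipid is taken up through scavenger receptors, carried by fatty acid binding proteins, stored in droplets or burned, and cholesterol is exported through ABC transporters. GM-CSF and the nuclear receptor PPARγ, encoded by *Pparg*, are needed for this work, and macrophages that lack either fill with lipid.

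The members lie at separate places on the mouse genome (GRCm38, as in the file headers). *Pparg* spans chr6:115360951-115490399 on the plus strand and *Fabp1* chr6:71199827-71205023 on the plus strand, and *Olr1* is at chr6:129485244-129507165 on the minus strand. *Lpl* spans chr8:68880491-68907448 and *Abcg1* chr17:31057675-31117988, both on the plus strand, and *Plin2* spans chr4:86648386-86670060, *Fabp4* chr3:10204088-10208576 and *Cd36* chr5:17781690-17888801, all on the minus strand. Promoter windows, the 250 bases before a RefSeq transcript start, were at hand for 5 members (*Plin2*, *Cd36*, *Fabp1*, *Pparg* and *Olr1*), with 7 windows in all. *Lpl*, *Abcg1* and *Fabp4* were not analysed for promoter sequence. The windows were searched on both strands for AGGTCA, the half-site bound by nuclear receptors of the PPARγ and LXR kind. At least 1 copy was found in 6 of the 7 member windows and in each of the 5 genes, and in 14% of all 32851 mouse windows. The full direct repeat AGGTCANAGGTCA was found in no member window and in 0.0335% of all windows, and GAGGAAGT, a form of the motif of PU.1, the macrophage factor, in no member window and in 2.44% of all. Its shorter form GAGGAAG, which lies within GAGGAAGT, was found in *Fabp1* and in 10.6% of all windows. TGACTCA, the AP-1 motif, was found in *Olr1* and in 4.46% of all windows. A match is only a run of letters and was not tested for binding. The stretches of *Plin2*, *Fabp1* and *Olr1* that hold AGGTCA upstream of the annotated gene are given here because these 3 genes had their highest level in alveolar macrophages. The sequences are from RefSeq (GRCm38.p6), written 5′ to 3′ on the strand of the gene, with AGGTCA or its reverse complement TGACCT in capitals.
Plin2, chr4:86670061-86670309, minus strand: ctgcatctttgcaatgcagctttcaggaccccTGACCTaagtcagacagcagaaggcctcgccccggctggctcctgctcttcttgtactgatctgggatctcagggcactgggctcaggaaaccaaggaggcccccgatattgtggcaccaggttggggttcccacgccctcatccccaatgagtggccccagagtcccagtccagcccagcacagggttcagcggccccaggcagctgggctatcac
Fabp1, chr6:71199629-71199826, plus strand: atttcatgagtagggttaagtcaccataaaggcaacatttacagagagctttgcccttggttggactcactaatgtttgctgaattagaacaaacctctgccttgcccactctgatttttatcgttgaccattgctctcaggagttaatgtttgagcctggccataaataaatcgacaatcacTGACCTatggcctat
Olr1, chr6:129507166-129507415, minus strand: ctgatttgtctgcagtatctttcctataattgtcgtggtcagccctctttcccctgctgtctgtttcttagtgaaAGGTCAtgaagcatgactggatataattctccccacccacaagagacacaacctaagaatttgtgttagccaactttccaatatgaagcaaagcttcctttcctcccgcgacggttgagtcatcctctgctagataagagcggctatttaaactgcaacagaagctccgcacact
The copy began 218 bases before the start in *Plin2*, 67 bases before it in *Fabp1*, which had another copy 9 bases before it, past the stretch printed, and 175 bases before it in *Olr1*.

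The 6 libraries held 37666042 to 48612412 UMIs, and 3252 to 4325 cells per mouse were used, with medians of 5924 to 7913.5 UMIs per cell. Pairs of libraries shared 0 to 8 cell barcodes. Cells were clustered without the 8 members or any other gene of the lipid lists used here, and clusters were named "like" a cell type from marker genes. Of the libraries, 2 stood apart, both from ipilimumab-treated mice. Ipilimumab 1 had 22056 barcodes with 100 or more UMIs against 4834 to 6230 in the others, and 78.5% of its UMIs in called cells against 92.3% to 93.0%. Ipilimumab 3 had a 7-marker alveolar macrophage sum of 31186 CPM (the UMIs of a gene per 1000000 UMIs of the class in 1 mouse) in its alveolar macrophage-like cells against 8749 to 10548 in the other 5 mice, mostly from *Chil3* (28494 against 5954 to 7674), and its free RNA held 22572 CPM of these markers against 2909 to 6894. Folds of *Fabp4* and *Cd36* in alveolar macrophage-like cells and over all cells are given with and without ipilimumab 3.

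Alveolar macrophage-like cells numbered 458, 801 and 285 in the IgG1-treated mice and 330, 702 and 562 in the ipilimumab-treated mice, 3138 in all, with a median of 21442.5 UMIs per cell and 6667491 to 16776499 UMIs per mouse in the class. All 7 alveolar macrophage markers were detected in every mouse, among them *Siglecf* at 50.8 to 95.2, *Marco* at 26.6 to 43.6, *Krt79* at 101 to 265 and *Atp6v0d2* at 687 to 1069 CPM. The class had been named from these same markers, so their detection is no test of the label. Interstitial macrophage-like cells were few, with 26, 25 and 8 cells in the IgG1-treated and 16, 18 and 33 in the ipilimumab-treated mice. Alveolar epithelial type 2 (AT2)-like cells numbered 3, 4 and 0 in the IgG1-treated mice against 118, 7 and 7, and the 118 of ipilimumab 1 had a median of only 1116 UMIs, so AT2-like levels are given for the ipilimumab-treated mice alone.

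Levels are given in CPM, in the order of mice 1, 2 and 3 of each arm. They describe each gene across cell classes and carry no test between classes, since the members had been picked as genes of alveolar macrophages. The alveolar macrophage-like class had the highest median for 5 of the 8 members (*Lpl*, *Plin2*, *Abcg1*, *Fabp1* and *Olr1*), among classes with at least 5 cells in 5 or more mice. The nonclassical monocyte-like class led for *Pparg* and *Fabp4*, and aerocyte capillary endothelial-like cells led for *Cd36*. The same classes led when cells were called by UMI number alone and when free RNA was subtracted, and general capillary endothelial-like cells led for *Cd36* when cells were gated on markers instead of clustered.

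**Figure D1:**
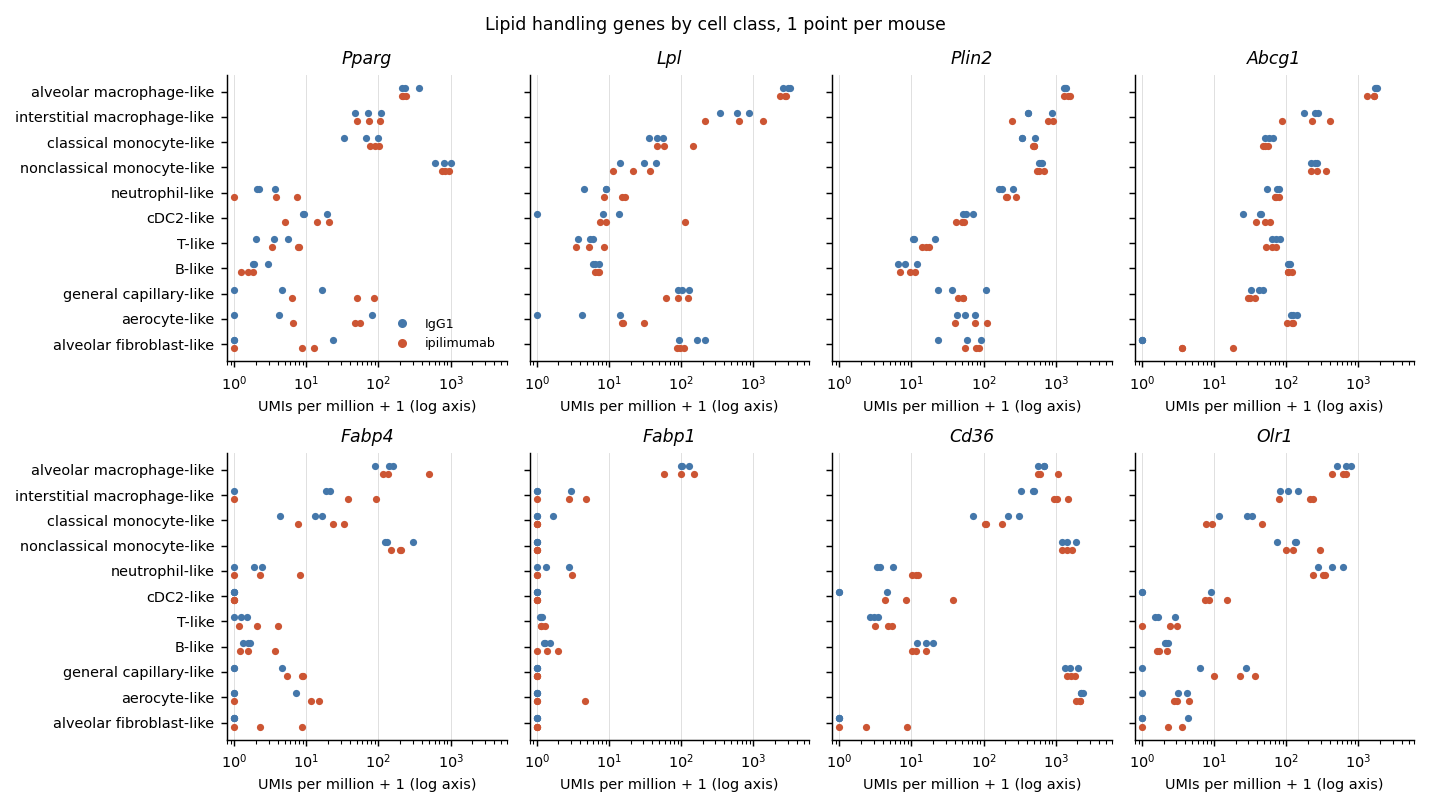
Level of each of the 8 members (CPM plus 1, log axis) in 11 cell classes, with 1 point per mouse, blue for IgG1 and orange for ipilimumab. Lpl, Plin2, Abcg1, Fabp1 and Olr1 sit highest in alveolar macrophage-like cells, while Pparg and Fabp4 reach their highest median in nonclassical monocyte-like cells and Cd36 in aerocyte-like cells.

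The regulator of the group was *Pparg*. In alveolar macrophage-like cells it stood at 233, 214 and 369.6 CPM in the IgG1-treated mice and at 239, 213 and 215 CPM in the ipilimumab-treated mice. IgG1 3 was the highest, and the other 5 mice lay close together. Nonclassical monocyte-like cells, the patrolling monocytes of the vessels, held 610.3, 822 and 1001 CPM under IgG1 and 761, 945 and 846 CPM under ipilimumab. Every mouse had more *Pparg* in these monocytes than in its alveolar macrophages, and the ranges of the classes did not overlap. Part of the nonclassical monocyte-like class, cluster 20, had neutrophil genes among its leading genes, and the summed neutrophil markers of the class ran from 1711 to 9009 CPM. Without cluster 20, *Pparg* stood at 833, 1004 and 1161 CPM under IgG1 and 831, 1045 and 1015 CPM under ipilimumab, above the alveolar macrophage range in all 6 mice. Classical monocyte-like cells were far below at 32.7 to 100.3 CPM, and interstitial macrophage-like cells overlapped with them at 45.7 to 106 CPM. Group 2 innate lymphoid-like cells of the ipilimumab-treated mice, 10, 13 and 14 cells, held 404, 859 and 1194 CPM, with a median above that of the nonclassical monocytes. Having too few cells under IgG1, they were left out of the ranking of classes. Of all *Pparg* UMIs in called cells, 69.8% (55.0% to 82.0% by mouse) came from alveolar macrophage-like and 19.1% from nonclassical monocyte-like cells.

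*Lpl*, which encodes lipoprotein lipase, the enzyme that frees fatty acids from lipoprotein triglyceride, was at 3271, 2566 and 3077 CPM in alveolar macrophage-like cells under IgG1 and at 2871, 2796 and 2390.0 CPM under ipilimumab. The arms overlapped, with ipilimumab 3 the lowest. Proliferating cells, a mix of lineages, held 941, 464 and 162 CPM under IgG1 and 571, 982 and 885 CPM under ipilimumab. Interstitial macrophage-like cells held 868, 593 and 352 CPM under IgG1 and 213, 1385 and 632 CPM under ipilimumab. These classes overlapped each other, and neither reached the alveolar range. The interstitial values were widely spread, and the alveolar macrophage marker sum ran from 103 to 4218 CPM in them and from 715 to 16414 CPM in proliferating cells. Below both lay alveolar fibroblast-like cells at 86.0 to 213, adventitial fibroblast-like cells at 86.5 to 202 and general capillary endothelial-like cells at 62.0 to 129 CPM, ranges that overlapped. Classical monocyte-like cells held 46.0, 54.6 and 35.1 CPM under IgG1 and 56.3, 145 and 45.7 CPM under ipilimumab, and nonclassical monocyte-like cells 10.6 to 43.4 CPM. Alveolar macrophages held 94.8% of all *Lpl* UMIs in called cells (91.6% to 97.9% by mouse). *Lpl* was also plentiful in free RNA, at 400 to 838 CPM, and B-like cells, which should lack it, showed 4.96 to 6.38 CPM. Once the estimated free RNA was subtracted, B-like cells showed 0 to 3.09 CPM. The amount of free RNA had been estimated from the alveolar macrophage markers in B-like cells, taken to hold none of their own. The fall of *Lpl* in B-like cells is therefore no test of its source.

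The uptake receptors differed in where they were found. CD36 is a scavenger receptor and fatty acid translocase known in macrophages and in capillary endothelium. *Cd36* in alveolar macrophage-like cells was at 565, 679 and 680.3 CPM under IgG1 and at 612, 572 and 1066 CPM under ipilimumab, with ipilimumab 3 above the rest and the other 5 mice mixed. Aerocyte-like cells, the large capillary cells of gas exchange, held 2428, 2247 and 2273 CPM under IgG1 and 1933, 2144 and 2137 CPM under ipilimumab. Every mouse had more in aerocytes than in alveolar macrophages. General capillary endothelial-like cells followed at 2046, 1346 and 1557 CPM under IgG1 and 1823, 1636 and 1456 CPM under ipilimumab, and nonclassical monocyte-like cells at 1425, 1211 and 1939.6 CPM and 1234, 1440.2 and 1664 CPM. The last 2 classes overlapped across mice, so their order is not set by these data. AT2-like cells of the ipilimumab-treated mice held 1251, 872 and 701 CPM, cDC1-like cells 189 to 515 CPM and classical monocyte-like cells 71.3 to 313 CPM. Neutrophil-like cells were near 0 at 2.38 to 4.59 CPM under IgG1 and 9.03 to 11.3 CPM under ipilimumab, at or below the 9.20 to 18.9 CPM of B-like cells. *Cd36* had the lowest share of its UMIs in alveolar macrophages of the 8 members, 65.6%, with 10.2% in nonclassical monocytes, 6.66% in general capillary and 6.36% in aerocyte-like cells.

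OLR1 (LOX-1) is a scavenger receptor for oxidized lipoprotein. *Olr1* was at 666, 508 and 795 CPM in alveolar macrophage-like cells under IgG1 and at 612, 665 and 433 CPM under ipilimumab. IgG1 3 was the highest, ipilimumab 3 the lowest, and the arms overlapped. Neutrophil-like cells were the next class, at 435, 276 and 615 CPM under IgG1 and 324, 234 and 349 CPM under ipilimumab. The ranges of these classes overlapped across mice, but within each of the 6 mice alveolar macrophages held more. Nonclassical monocyte-like cells held 74.1 to 292 CPM, interstitial macrophage-like cells 79.9 to 234 CPM and classical monocyte-like cells 6.76 to 45.7 CPM. No *Olr1* UMI was found in AT2-like cells, where 3 UMIs would be 3.18 CPM, and B-like cells held 0.635 to 1.28 CPM. Alveolar macrophages held 89.0% of all *Olr1* UMIs.

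Of the fatty acid binding proteins, *Fabp4*, which encodes the adipocyte and macrophage form, showed the largest spread between mice in alveolar macrophages. It was at 138, 158 and 88.5 CPM in alveolar macrophage-like cells under IgG1 and at 113, 136 and 493 CPM under ipilimumab. Ipilimumab 3 lay far above all other mice, which overlapped. Nonclassical monocyte-like cells held 123, 132 and 301 CPM under IgG1 and 149, 208 and 197 CPM under ipilimumab, a range that overlapped that of alveolar macrophages, so the order of these classes is not set by these data. Interstitial macrophage-like cells held 0 to 91.4 CPM, aerocyte-like cells 0 to 14.2 CPM and general capillary endothelial-like cells 0 to 8.07 CPM. Free RNA held *Fabp4* at 27.8 to 130 CPM in 5 mice and at 337 CPM in ipilimumab 3.

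*Fabp1*, which encodes the form best known from liver and gut, had the highest share of its UMIs in alveolar macrophages of the 8 members, 95.8%. Alveolar macrophage-like cells held 100.5, 103 and 126 CPM under IgG1 and 152, 99.8 and 56.8 CPM under ipilimumab, with ipilimumab 1 the highest and ipilimumab 3 the lowest of the 6. Nonclassical monocyte-like cells and general capillary endothelial-like cells of all mice together held 0 *Fabp1* UMIs, which allows up to 0.572 and 0.9995 CPM. Interstitial macrophage-like cells held 0 to 3.81 CPM and B-like cells 0 to 0.952 CPM. Proliferating cells were the next class, at 2.97 to 40.2 CPM with 3.46% of its UMIs.

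Storage and export were followed by *Plin2*, which encodes perilipin 2, the coat protein of lipid droplets, and *Abcg1*, which encodes the transporter that passes cholesterol to high-density lipoprotein. *Plin2* was at 1388, 1312 and 1337 CPM in alveolar macrophage-like cells under IgG1 and at 1475, 1299 and 1564 CPM under ipilimumab, a narrow range in which the arms overlapped. Other myeloid classes held it too, with nonclassical monocyte-like cells at 554 to 683 CPM, classical monocyte-like cells at 336, 511 and 344 CPM under IgG1 and 494, 502 and 477 CPM under ipilimumab, interstitial macrophage-like cells at 247 to 931 CPM and neutrophil-like cells at 162 to 283 CPM. B-like cells held 5.51 to 10.9 CPM. Alveolar macrophages held 86.5% of the *Plin2* UMIs (79.4% to 88.7% by mouse).

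*Abcg1* was at 1751, 1691 and 1829 CPM in alveolar macrophage-like cells under IgG1 and at 1662, 1628 and 1305 CPM under ipilimumab. Each ipilimumab-treated mouse was below each IgG1-treated mouse, ipilimumab 3 by the most. The next classes were proliferating cells at 78.8 to 604 CPM, nonclassical monocyte-like cells at 219 to 355 CPM and interstitial macrophage-like cells at 87.5 to 406 CPM, all of which overlapped. *Abcg1* was also found in lymphoid cells. B-like cells held 104 to 119 CPM, and 102 to 115 CPM after free RNA was subtracted. NK-like cells held 78.2 to 104 CPM, T-like cells 52.4 to 80.7 CPM, and aerocyte-like cells 101 to 142 CPM, while classical monocyte-like cells held 47.2 to 64.1 CPM. Alveolar macrophages held 86.6% of its UMIs.

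Most alveolar macrophage-like cells carried most of the members. At least 1 UMI was found in 99.1% to 100% of them for *Lpl*, 97.3% to 100% for *Abcg1*, 95.5% to 100% for *Plin2*, 88.5% to 98.0% for *Olr1*, 84.5% to 94.0% for *Pparg* and 80.3% to 90.4% for *Cd36*, by mouse. *Fabp4* was found in 36.7% to 61.7% and *Fabp1* in 37.4% to 59.3% of cells, so the low class level of these genes was carried by part of the cells at this depth. B-like cells, with a median of 5603 UMIs, had a UMI of *Lpl* in 3.01% to 3.67%, of *Pparg* in 0.150% to 0.631%, of *Fabp1* in 0% to 0.606% and of *Abcg1* in 34.3% to 42.7%. With each cell thinned to 1000 UMIs, the shares in alveolar macrophages were 85.3% to 91.9% for *Lpl*, 67.8% to 79.0% for *Abcg1*, 66.7% to 73.9% for *Plin2*, 35.0% to 47.0% for *Cd36*, 30.6% to 43.2% for *Olr1*, 15.3% to 23.9% for *Pparg*, 7.72% to 25.1% for *Fabp4* and 4.45% to 12.4% for *Fabp1*. Thinning left out 2 alveolar macrophage-like cells of the IgG1 arm and 10 of the ipilimumab arm. The thinned share for *Pparg* was higher in nonclassical monocyte-like cells, at 44.8% to 51.1%, the same order as the CPM. The mean number of members found per alveolar macrophage was 6.78 ± 0.04 under IgG1 and 6.63 ± 0.24 under ipilimumab (SD, n = 3 mice each), and after thinning 3.50 and 3.54. B-like cells carried 0.524 and 0.520 members per cell, and 0.126 and 0.121 after thinning. Within single mice, members rose and fell together across alveolar macrophages only weakly. The median correlation between pairs of members in thinned cells ran from −0.03 to 0.12, and the higher values in whole cells, such as a median of 0.31 for *Lpl* with *Abcg1*, share the depth of the cell.

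The alveolar macrophage-like class was made of cluster 4, with 1938 cells led by *Krt79*, *Ear1*, *Kcnip4* and *Cidec*, and of 6 parts of cluster 7, with 1200 cells. All parts carried the members, at unequal levels. *Fabp1* was higher in cluster 4 than in the cluster 7 parts in 6 of 6 mice, with medians over mice of 120 and 59.0 CPM and a median ratio of 2.22. *Abcg1* (median ratio 1.41), *Plin2* (1.32) and *Lpl* (1.06) were also higher in cluster 4 in 6 of 6 mice. *Cd36* (1.34) and *Pparg* (1.32) were higher in 5 of 6 mice, ipilimumab 3 being the exception for both, and *Olr1* (1.06) in 5 of 6, with ipilimumab 1 the exception. *Fabp4* went the other way in all 6 mice, with medians of 108 CPM in cluster 4 and 168 CPM in the cluster 7 parts and a ratio of 0.627. The clusters had been built from other genes of the same cells, so these differences are descriptions with no test.

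**Figure D2:**
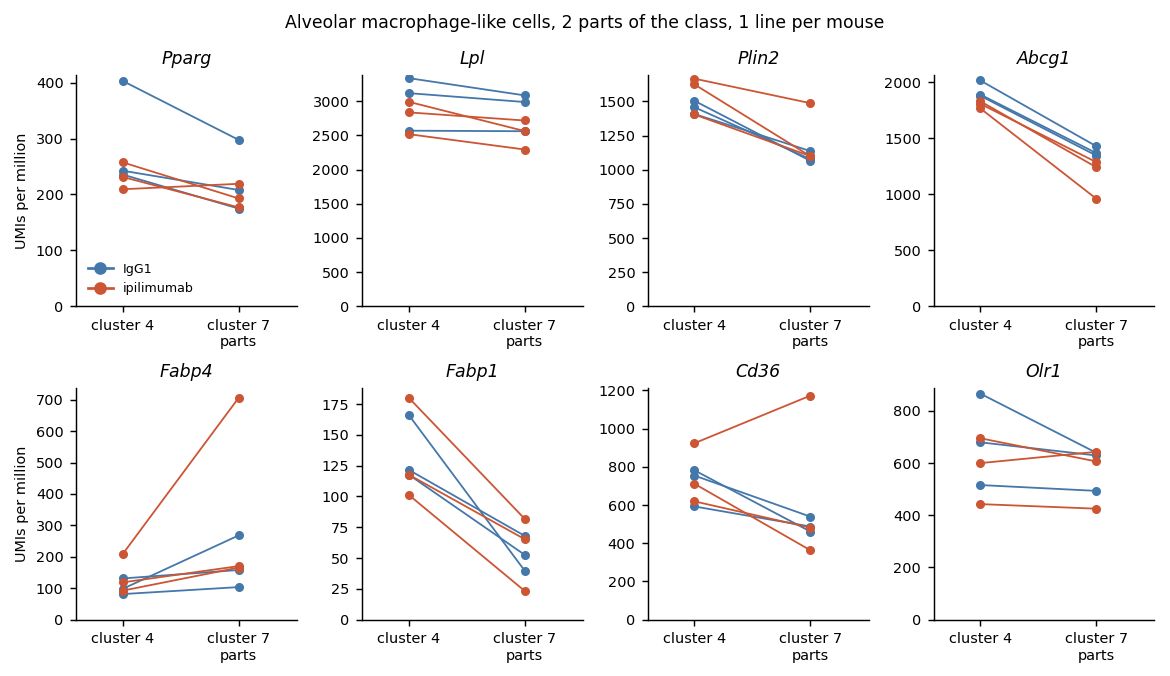
Level of each member (CPM, linear axis from 0) in cluster 4 and in the cluster 7 parts of the alveolar macrophage-like class, with 1 line per mouse, blue for IgG1 and orange for ipilimumab. Fabp1, Abcg1, Plin2 and Lpl fall from cluster 4 to cluster 7 in every mouse, and Fabp4 rises in every mouse, most in ipilimumab 3.

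One part of cluster 7 differed from the rest in both origin and members. Cluster 7.2, led by *Mmp12*, *Inhba*, *Mfge8*, *Gpnmb* and *Chil3*, had 186 cells, of which 155 came from ipilimumab 3 and 21 from IgG1 2, with a median of 35020 UMIs per cell. Over all its cells it held *Fabp4* at 1041 and *Cd36* at 1462 CPM, but *Fabp1* at only 9.05 and *Abcg1* at 877 CPM, pooled values carried by ipilimumab 3. By contrast, cluster 7.1, led by *Osm*, *Tgfbi* and *Tlr2*, held *Fabp4* at 67.8 and *Cd36* at 289 CPM, and cluster 7.3, led by *Spp1* and *Fn1*, held *Fabp1* at 32.2 CPM. Cluster 7.5, led by *Fn1* and *Mertk* with *Olr1* itself, held *Olr1* at 1016 CPM against 354 CPM in cluster 7.0. In the 3 mice with at least 5 cells there, *Fabp4* stood at 1164 CPM in IgG1 2 (21 cells), 944 CPM in ipilimumab 2 (6 cells) and 1029 CPM in ipilimumab 3 (155 cells), so the few cells of the other mice also held it. For *Abcg1* the same mice stood at 1536, 1517 and 731 CPM and for *Fabp1* at 32.6, 39.2 and 4.01 CPM, with ipilimumab 3 below the others for both. Because cluster 7.2 is mostly 1 library, a trait of that library and a kind of cell cannot be told apart here. Without cluster 7.2, ipilimumab 3 had *Fabp4* at 178 CPM in place of 493, *Cd36* at 795 in place of 1066, *Fabp1* at 87.8 in place of 56.8 and *Abcg1* at 1642 in place of 1305 CPM.

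Ipilimumab was compared with IgG1 for all genes in each of 19 classes, on UMIs summed per mouse, with edgeR's quasi-likelihood test. A gene was called at a Benjamini-Hochberg adjusted p under 0.05, over all genes tested in the class, with a log2 fold change of over 0.3 in either direction. The 8 members gave 75 tests in 17 classes. None was called, against 0.04% of the 122537 gene and class pairs tested, and 9 had an unadjusted p under 0.05, as had 6.02% of all pairs. DESeq2 called 1 (*Cd36* in interstitial macrophages), against 0.14% of all pairs. With no filter on low counts, edgeR tested 142 pairs of a member and a class and called 8, against 0.617% of all pairs. The share of all genes called by edgeR was 0% in 15 classes, and 0.662% in aerocyte-like, 0.345% in plasma-like, 0.0223% in alveolar fibroblast-like and 0.0156% in ciliated-like cells.

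In alveolar macrophage-like cells edgeR called 0 of 12252 genes (0%), with 394 genes (3.22%) and none of the 8 members at an unadjusted p under 0.05, and DESeq2 called 1 gene (0.00816%), not a member. The median log2 fold change (ipilimumab over IgG1) was −0.13 over the members and 0.01 over all genes tested. *Fabp4* had the largest log2 fold change, 0.98 (SE 0.54, edgeR adjusted p = 0.907), which was −0.06 without ipilimumab 3 and 0.23 (SE 0.24) without cluster 7.2. *Cd36* was at 0.24 (SE 0.25), and at −0.14 without ipilimumab 3. *Plin2* had a log2 fold change of 0.11 (SE 0.11) and *Fabp1* one of −0.11 (SE 0.28). The other values were also below 0, with *Lpl* at −0.14 (SE 0.12), *Olr1* at −0.20 (SE 0.19), *Pparg* at −0.29 (SE 0.19) and *Abcg1* at −0.20 (SE 0.11). *Abcg1* was the only member whose arms did not overlap in this class, which held for 9.21% of all genes tested, and its adjusted p was 0.907. The intervals of 2 SE on each side ran from −0.68 to 0.10 for *Pparg*, from −0.39 to 0.10 for *Lpl*, from −0.41 to 0.02 for *Abcg1*, from −0.11 to 0.33 for *Plin2* and from −0.11 to 2.07 for *Fabp4*, so a change of *Lpl* or *Plin2* beyond those bounds was not seen, while for *Fabp4* the data leave a wide range.

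**Figure D3:**
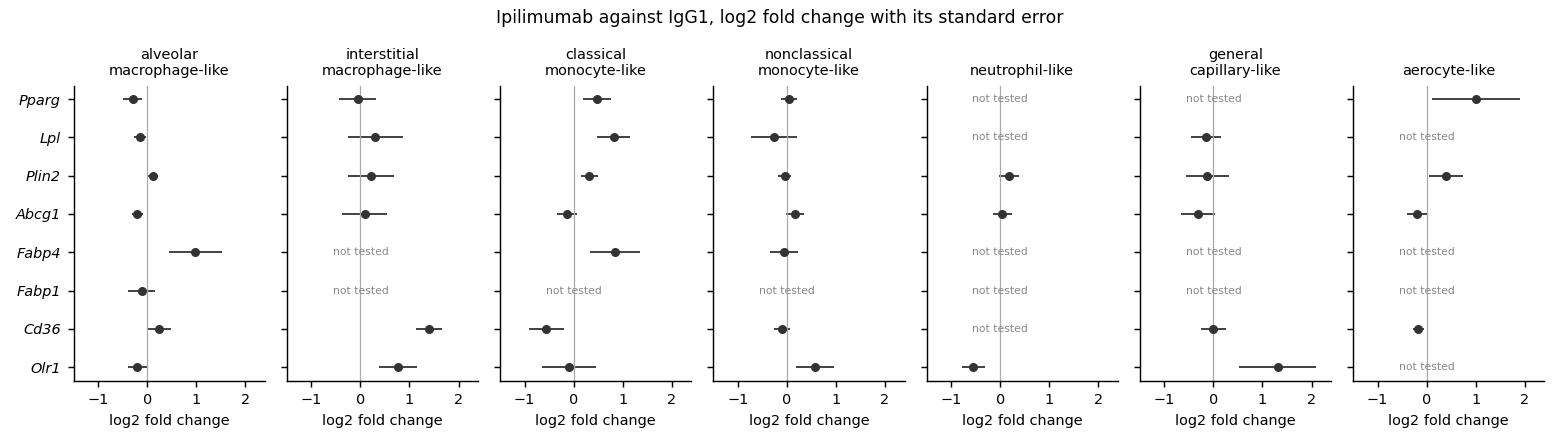
Log2 fold change of each member, ipilimumab over IgG1, in 7 cell classes (edgeR, bars are ± 1 SE, n = 3 mice per arm), with pairs whose counts were too low marked as not tested. Cd36 in interstitial macrophage-like cells stands at 1.40 and Fabp4 in alveolar macrophage-like cells at 0.98 with a long bar, and no pair shown was called by edgeR, also where a bar of 1 SE does not reach 0.

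Cluster 4 and the cluster 7 parts were also fitted apart, and the difference between their folds was not tested. edgeR called 0 genes in either (484 and 310 genes at an unadjusted p under 0.05), and DESeq2 called 1 gene in each. *Fabp4* had a log2 fold change of 0.42 (SE 0.28) in cluster 4 and 1.03 (SE 0.60) in the cluster 7 parts, and 0.02 and −0.12 without ipilimumab 3. With no filter on low counts *Fabp4* was called in the cluster 7 parts (edgeR adjusted p = 0.0235). The share of all genes called there under that setting was not set beside this call. Over all 19 classes, edgeR called 0.617% of gene and class pairs with no filter, against 0.04% with it. *Fabp4* in the cluster 7 parts was at 706 CPM in ipilimumab 3 and at 104 to 268 CPM in the other mice. Whether the call holds without ipilimumab 3 was not tested. *Abcg1* was at −0.12 in cluster 4 and −0.24 in the cluster 7 parts. Its arms did not overlap in either, as held for 10.2% and 9.15% of all genes. *Cd36* was at 0.06 and 0.49, and at −0.12 and −0.24 without ipilimumab 3.

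The smallest unadjusted p of the 75 tests was that of *Cd36* in interstitial macrophage-like cells. It stood at 331, 483 and 495 CPM in the IgG1-treated mice and at 1031, 938 and 1484 CPM in the ipilimumab-treated mice. Each ipilimumab-treated mouse was above each IgG1-treated mouse, which held for 10.9% of all genes tested there. The log2 fold change was 1.40 (SE 0.26), with an unadjusted p of 0.000339 in edgeR, as 4.81% of genes had under 0.05, but an adjusted p of 0.526, and edgeR called 0 of 5618 genes (0%). DESeq2 gave *Cd36* an adjusted p of 0.00927 and called 6 genes (0.107%). The fold stayed between 1.02 and 1.57 over 16 alternatives, with edgeR and DESeq2 adjusted p between 0.000246 and 0.9997.

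The class was small and came from 2 clusters, a part of cluster 13 and a part of cluster 7. In the part of cluster 13, *Cd36* was at 277, 396 and 224 CPM under IgG1 and 1027, 322 and 791 CPM under ipilimumab, where the 224 and the 322 each rest on 4 cells. In cluster 7.8, the part split from the cluster that gave alveolar macrophages, it was at 384, 628 and 655 CPM and 1075, 1014 and 1821 CPM, where the 655 rests on 4 cells and the 1075 on 2. The arms did not overlap in cluster 7.8, and in the part of cluster 13 ipilimumab 2 lay within the IgG1 range. The 7 alveolar macrophage markers, all detected in the class, summed to 763, 140 and 775 CPM under IgG1 and to 103, 2394 and 4218 CPM under ipilimumab. Their part in the *Cd36* result was not tested.

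**Figure D4:**
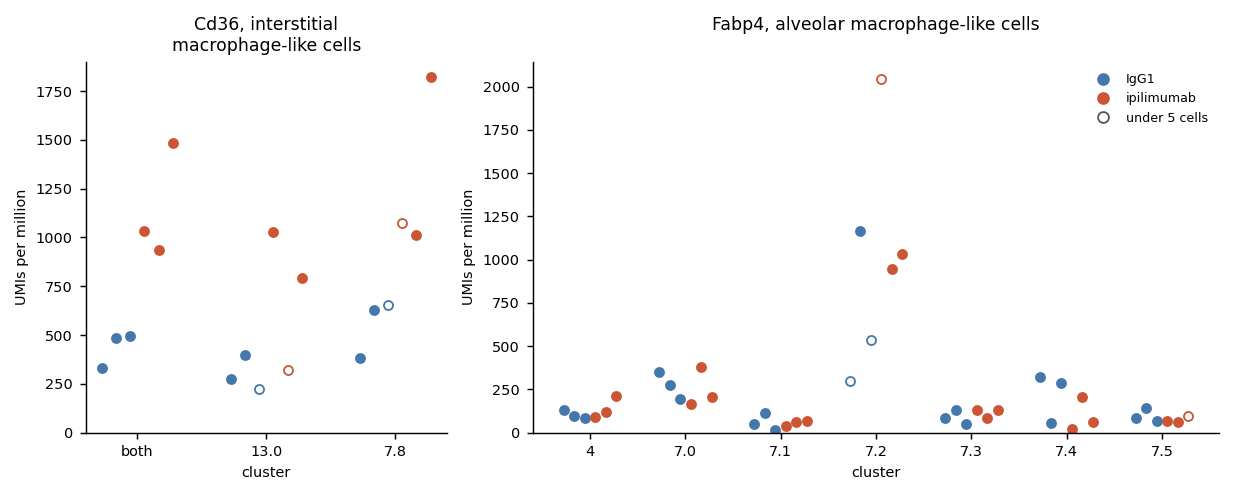
Left, Cd36 (CPM) in interstitial macrophage-like cells, both clusters together and apart, and right, Fabp4 (CPM) in the alveolar macrophage clusters 4 and 7.0 to 7.5, with 1 point per mouse, blue for IgG1, orange for ipilimumab and open where fewer than 5 cells were summed. The ipilimumab points lie above the IgG1 points for Cd36 over both clusters together, and the high Fabp4 of ipilimumab 3 goes with cluster 7.2.

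The other 5 members tested in interstitial macrophages each had an unadjusted p over 0.05. *Olr1* had a log2 fold change of 0.76 (SE 0.39, edgeR adjusted p = 0.942), *Lpl* one of 0.31 (SE 0.56), *Plin2* one of 0.22 (SE 0.46), *Abcg1* one of 0.09 (SE 0.45) and *Pparg* one of −0.06 (SE 0.38). *Fabp4* and *Fabp1* had too few UMIs in the class to be tested. Whether the response differed between alveolar and interstitial macrophages was asked in 1 model with the mouse as a block. The *Cd36* fold was lower in alveolar macrophages by a log2 difference of −1.27 (SE 0.27, unadjusted p = 0.000133 and adjusted p = 0.263 in edgeR), and that of *Olr1* by −0.96 (unadjusted p = 0.0228, adjusted p = 1). With all mice, edgeR called 0 of 11848 genes (408 at an unadjusted p under 0.05). The *Cd36* difference ran from −1.39 to −1.18 as each mouse was left out, with edgeR adjusted p from 0.0866 (without ipilimumab 1) to 0.873. That of *Olr1* ran from −1.39 (without ipilimumab 1, edgeR adjusted p = 0.0699) to −0.57 (without ipilimumab 3). Without ipilimumab 1 edgeR called 16 of 11838 genes, and 1 gene each without IgG1 3 and without ipilimumab 2, none of them a member.

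In nonclassical monocyte-like cells, which led the ranked classes for *Pparg* and *Fabp4*, the arms overlapped for all 7 members tested, while they did not for 11.1% of all genes. *Pparg* had a log2 fold change of 0.05 (SE 0.16), *Cd36* one of −0.09 (SE 0.17) and *Fabp4* one of −0.06. Without cluster 20 these were −0.07 for *Pparg* and −0.20 for *Cd36*, and *Olr1* was at 1.15 (unadjusted p = 0.0416, edgeR adjusted p = 0.92). *Olr1* then stood at 43.3, 119 and 63.5 CPM under IgG1 and at 69.2, 117 and 344 CPM under ipilimumab. The arms overlapped, with ipilimumab 3 far above the rest, and no fit without both cluster 20 and ipilimumab 3 was run. In the whole class the *Olr1* fold was 0.57 (SE 0.38, unadjusted p = 0.159 in edgeR). In classical monocyte-like cells *Lpl* was at 0.81 (SE 0.34, unadjusted p = 0.0289, edgeR adjusted p = 0.9995), where 4.47% of genes had an unadjusted p under 0.05. Ipilimumab 2, at 145 CPM, was the highest of the 6 mice, ipilimumab 1 at 56.3 CPM lay just above the IgG1 mice, and ipilimumab 3 lay within their range. In neutrophil-like cells *Olr1* was at −0.55 (SE 0.24, unadjusted p = 0.0413, edgeR adjusted p = 0.975), with arms that overlapped, where 4.18% of genes had an unadjusted p under 0.05.

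In the capillary endothelium, which takes up fatty acids with CD36, *Cd36* in aerocyte-like cells had a log2 fold change of −0.17 (SE 0.12, edgeR adjusted p = 0.624). Each ipilimumab-treated mouse was below each IgG1-treated mouse, which held for 17% of all genes in that class. In general capillary endothelial-like cells *Cd36* was at −0.003 (SE 0.25), with arms that overlapped. For AT2-like cells the arms could be compared only with cluster 15 left undivided and without IgG1 3. That cluster also held airway secretory-like and alveolar type 1-like cells. Of its 10 cells in IgG1 1 and 15 in IgG1 2, only 3 and 4 were AT2-like. In ipilimumab 1, 35 of its 139 cells were airway secretory-like and 4 were alveolar type 1-like. *Cd36* in the undivided cluster was at 441 and 707 CPM under IgG1 and at 1173, 676 and 369.6 CPM under ipilimumab. These mixed values overlapped between the arms, and edgeR called 1 of 4835 genes (0.0207%), not a member.

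Among the remaining classes, ciliated-like cells had 3 members at an unadjusted p under 0.05 (*Cd36*, *Abcg1* and *Plin2*), as had 6.85% of all genes there. IgG1 2, with 4 ciliated-like cells, was left out of the fit. *Cd36* was at 0 CPM in both IgG1-treated mice that remained and at 17.7, 100.1 and 120.3 CPM under ipilimumab (unadjusted p = 0.000854, edgeR adjusted p = 0.383). IgG1 1 and IgG1 3 had 9 ciliated-like cells each, with 189097 and 240325 UMIs, so 0 CPM there does not show absence. The ipilimumab-treated mice had 47, 9 and 13 such cells, and the 47 of ipilimumab 1 had a median of only 976 UMIs. *Abcg1* was at 15.9 and 8.32 CPM under IgG1 and at 56.2, 159 and 19.6 CPM under ipilimumab (unadjusted p = 0.0104, edgeR adjusted p = 0.595). The arms did not overlap for 3 of the 5 members tested, and for 24% of all genes, in this class. The alveolar macrophage markers summed to 402 to 1017 CPM in ciliated-like cells, and their part in these values was not tested. Proliferating cells, with the wide marker sums given above, had 3 members at an unadjusted p under 0.05 (*Fabp4*, *Cd36* and *Fabp1*, all with an edgeR adjusted p of 0.843), as had 4.15% of genes. Over all cells summed per mouse, as a bulk measurement of the digest would give, edgeR called 0 of 17461 genes (0%, with 879 or 5.03% at an unadjusted p under 0.05) and DESeq2 37 (0.212%). *Fabp4* had a log2 fold change of 0.99 (SE 0.69) in that sum and *Cd36* one of 0.39, which were −0.01 and 0.10 without ipilimumab 3. In such a sum fewer cells of a class and less RNA per cell cannot be told apart.

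The wider machinery was read from 6 lists of other lipid genes, which in alveolar macrophage-like cells gave 74 genes tested. Of these, edgeR called 0, DESeq2 called 0, and 6 had an unadjusted p under 0.05 in edgeR, as had 3.22% of all genes there. In the list of fatty acid uptake and binding, 9 of 11 genes were tested and 0 passed in either direction, with a median log2 fold change of 0.08 against 0.01 over all genes. *Fabp5*, a binding protein of the same family as *Fabp4*, was at 449 to 722 CPM in 5 mice and at 1746 CPM in ipilimumab 3, with a log2 fold change of 0.78 (SE 0.44, edgeR adjusted p = 0.907), which was 0.0026 without ipilimumab 3. In the list of lipid droplets and lipolysis, 12 of 14 were tested, 0 passed, and the median was 0.10. *Lipa*, the lysosomal acid lipase, was the highest there at 522 to 699 CPM, and *Cidec*, a droplet fusion protein among the leading genes of cluster 4, stood at 98.3 to 226 CPM with ipilimumab 3 the lowest.

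In the list of cholesterol efflux and LXR, to which *Abcg1* would belong, all 14 genes were tested, 0 passed and the median was −0.11. *Abca1*, the partner exporter, was at 446, 451 and 366 CPM under IgG1 and 341, 409.8 and 298 CPM under ipilimumab, with arms that overlapped. *Pltp* (−0.22), *Mylip* (−0.45) and *Nr1h2* (0.29), the last encoding LXRβ, had an unadjusted p under 0.05 and an edgeR adjusted p of 0.907. In the list of lipid synthesis and SREBP, 16 of 16 were tested, 0 passed and the median was 0.11, with *Insig1* at 0.32 the one with an unadjusted p under 0.05. Of the fatty acid oxidation genes 13 of 14 were tested and 0 passed (median 0.00), with *Pdk4* at 0.60 under that unadjusted limit. The arms overlapped for *Pdk4*, and ipilimumab 3 was the highest. Of the GM-CSF and PPARγ axis all 10 were tested and 0 passed (median 0.07), with *Csf2rb2* at 0.30 under the same limit, and *Cebpb* the highest at 1936 to 2224 CPM. Across all 19 classes the lists gave 804 tests, of which 1 was called, *Apoe* higher in plasma-like cells, where 0.345% of genes were called, and 79 had an unadjusted p under 0.05, beside the 6.02% of all gene and class pairs given above. DESeq2 called 2 of them, *Csf2rb* in cDC1-like and *Bhlhe40* in T-like cells, beside 0.14% of all pairs.

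The genes most like each member across cell classes were found by Pearson's r of log levels over 20 classes among 8928 genes. The classes share libraries and free RNA, so r is a description. *Pparg* was most like *Lilra5* (0.917), *Abhd12* (0.910) and *Atg4c* (0.899), and *Fabp4* was most like *Abhd12* (0.923), *Lilra5* (0.894) and *Pparg* itself (0.887). *Fabp1* was most like *Acaa1b* (0.990), a peroxisomal thiolase, *Htr2c* (0.987) and *Krt79* (0.984). *Lpl* was nearest to *Hebp1* (0.937), *Pla2g15* (0.922), a lysosomal phospholipase, and *Ctsk* (0.910), and *Plin2* to *Hmox1* (0.922). *Olr1* was nearest to *Alox5* (0.944), the 5-lipoxygenase, and *Fpr2* (0.940), both genes of neutrophils and macrophages. *Abcg1* had lower values, with *Atp6v1b2* (0.859), a subunit of the lysosomal proton pump, as its nearest. *Cd36* was nearest to *Scarb1* (0.861), a scavenger receptor of the same family, and to *Flt1* (0.830), a capillary endothelial receptor.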

How the data were processed

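Whole-lung scRNA-Seq (10x Genomics Single Cell 3′ v3.1) was available as 1 UMI count matrix for each of the 6 mice. The counts were deposited by the authors as Cell Ranger wrote them (version 7.0.0 in the submitters' processing notes, with 4 in the file header), as unfiltered whole numbers per gene and barcode on GRCm38, with no normalization. No column belonged to a sample outside the series (0 columns).

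Cells were called from each matrix by UMI number and by difference from the free RNA profile (FDR 0.01), and kept with at least 200 genes and at most 10% mitochondrial UMIs. Simulated doublets were used to remove doublets. Counts were scaled to 10000 and log transformed, 2000 variable genes (without the 8 members and the lipid lists) gave 10 components, and Leiden clustering was run at resolution 0.8 (Python 3.11.15, leidenalg 0.10.2). Clusters were named by the markers of a fixed list, after the class with the highest score. Clusters with markers of several classes were clustered again, a step added after their marker genes had been seen and before any treatment test. Parts of such clusters did not need a clear lead. They kept a name also where scores were close, leading genes were tied, or markers of other classes were present. Among these were cluster 7.0 of the alveolar macrophage-like class (a tie) and every aerocyte-like part (a tie or mixed markers). Names were rebuilt here and can differ from those of the study.

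UMIs were summed per mouse and class (at least 5 cells) and tested with edgeR 4.0.16 in R 4.3.3 (TMM factors, filterByExpr, quasi-likelihood F test, Benjamini-Hochberg adjustment over all genes of the class), with DESeq2 1.42.0 as an alternative. Groups and replicate numbers came from the labels. Each p measures only the spread between these mice. The tests were tried on simulated counts with known changes. A count of 0 was given an upper limit of 3 UMIs. Such limits cover counting error only. The members and gene lists were chosen with earlier results of these data known. All members were reported in every class that the results turn on, and from each lipid list the highest genes in alveolar macrophages, those called and those at an unadjusted p under 0.05. Alternatives were other normalization, no filter, a replicate block, each mouse left out, resolution 0.4, marker gates, a UMI threshold alone, doublets kept and free RNA subtracted. The division of clusters 7, 15 and 20 was added after seeing the data.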

Additional observations from a re-analysis of the deposited data

How the results depend on the processing

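The count of member and class pairs called, 0 of 75, became 1 with DESeq2 (*Cd36* in interstitial macrophages), 8 with no filter on low counts, 1 with a replicate block (*Cd36* in ciliated-like cells), 1 with doublets kept (*Abcg1* in general capillary cells) and 0 to 2 as each mouse was left out (1 without ipilimumab 1, *Cd36* in ciliated-like cells, and 2 without ipilimumab 3, *Lpl* and *Abcg1* in ciliated-like cells). The number of pairs tested also differed. It was 75 with DESeq2, 142 with no filter, 82 with the replicate block and 73 with doublets kept. Without ipilimumab 1 it was 76, and without ipilimumab 3 it was 79. Of all gene and class pairs, 0.14% were called with DESeq2 and 0.617% with no filter. For the other settings the share of all pairs is not given here, so their counts are not set against all genes and are not read as a result about the members. The cause of the changes was not tested. The 8 were *Cd36* and *Fabp4* in interstitial macrophages, *Lpl* in cDC2-like cells, *Cd36*, *Lpl* and *Abcg1* in ciliated-like cells, *Abcg1* in adventitial fibroblasts and *Pparg* in general capillary cells (2.95, adjusted p = 0.000193, on 0 to 4 UMIs per IgG1-treated mouse). Nothing in the labels said that the replicate numbers pair the mice. Deviations of same-numbered mice from their arm means correlated at −0.20 to 0.20 over 18 pairs in the classes, 1 of them over 0.1. Those of mice with other numbers correlated at −0.25 to 0.24 over 36 pairs, 9 of them over 0.1. With 3 mice per arm these values do not settle whether the numbers pair the mice. The block changed no other call. Log2 fold changes that turned sign lay within 1 SE of 0 in the main fit, with 1 exception. *Fabp4* in alveolar macrophages, at 0.98 (SE 0.54), lay beyond 1 SE and within 2 SE, and turned sign without ipilimumab 3. In alveolar macrophages the values as each mouse was left out ran from −0.059 to 1.34 for *Fabp4* (lowest without ipilimumab 3), from −0.14 to 0.41 for *Cd36* and from −0.46 to 0.16 for *Fabp1*, and *Fabp1* was at 0.0070 without cluster 7.2. In nonclassical monocytes they ran from −0.12 to 0.20 for *Pparg* and from −0.23 to 0.093 for *Cd36*, with *Pparg* at −0.070 without cluster 20 and *Cd36* at 0.11 with the UMI threshold alone. In general capillary cells *Cd36* ran from −0.13 to 0.20 and was at 0.077 with no filter, 0.020 with the replicate block, 0.12 at resolution 0.4 and with the UMI threshold alone, 0.16 with marker gates and 0.0099 with free RNA subtracted. Of 279 fold changes under alternatives, 257 kept direction and side of the threshold, 2 passed it and 20 turned sign. Of 47 levels under alternatives, 46 moved by less than 1 SD, and *Lpl* in interstitial macrophages went to 1063 CPM with the UMI threshold alone. Limits were the 3 mice per arm, the 126 interstitial macrophage-like cells and the near absence of AT2-like cells under IgG1.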
